A study of Saccharomyces cerevisiae with 28 samples.

Results

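Transcripts of 65 nuclear genes for proteins of the mitochondrial ribosome were followed in budding yeast, Saccharomyces cerevisiae, out of 5656 genes measured. Members were taken by name: the MRPL, MRPS and RSM genes that carry a number, and 11 genes of the MRP series (MRP1, MRP2, MRP4, MRP7, MRP10, MRP13, MRP17, MRP20, MRP21, MRP49 and MRP51). Of the 65 genes, 37 encode proteins of the large subunit and 28 of the small subunit. All 65 symbols were found in the RefSeq annotation, and MRPL44 alone had a second probe set. The value of MRPL15 is uncertain because its probe set may share sequence with other transcripts. A further 12 mitochondrial ribosomal proteins with other names are described below as a list of related genes.

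RNA came from log phase cells and was hybridised to 28 single-colour Affymetrix yeast arrays. BY is a laboratory strain isogenic to S288C, the source of the reference genome. RM is a wild strain from a vineyard. Haploids of BY and of RM gave 3 arrays each, and so did diploids of BY and of RM. Diploid hybrids from the cross of BY with RM gave 6 arrays. Another 6 arrays measured mRNA of BY and RM mixed in equal parts, so this group holds no hybrid cells. Haploid segregants of the cross gave 2 arrays, and diploids made by crossing 2 segregants with each other, called segregant hybrids here, gave 2. No label states the mating types, marker mutations or source of the replicates. If replicates came from a shared culture, the p-values cover technical spread alone. Each value is the log2 level of a probe set, so a difference of 1 is a doubling. How well the probes match the RM sequence was not examined. Its part in differences of RM, hybrids or mixtures from BY was not tested.

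The array medians lay between 7.34 and 7.56. Precision is limited by the number of arrays. Mating genes fitted the ploidy in the labels. The mean level of 7 genes that diploids repress was 8.52 to 8.90 on the haploid, segregant and mixture arrays and 6.36 to 7.04 on all arrays of diploids and hybrids. Limma called 6 of the 7 lower in BY diploids and 5 in RM diploids than in haploids. The gene HO departed from this mean in RM haploids (7.08) and segregants (6.605), near its 6.70 in BY and 6.90 in RM diploids. RM haploids expressed the genes of mating type a (mean of 5 genes 10.76 to 10.83, against 6.79 to 6.98 in BY haploids), and BY haploids and segregants expressed those of mating type alpha. The 5th mixture array stood apart, with a mean correlation of 0.922 with the other mixtures. On the other arrays the mean correlation within the group was 0.963 or higher, with the lowest on the 6th and 1st hybrid arrays.

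The mitochondrial ribosome, or mitoribosome, translates the few mRNAs made from mitochondrial DNA, which in yeast encode mainly core subunits of the respiratory chain and of ATP synthase. Its small subunit binds and decodes the mRNA, and its large subunit joins amino acids and releases the chain through an exit tunnel towards the inner membrane. In yeast nearly all its proteins are made in the cytosol from nuclear genes and imported. Some descend from the bacterial ribosome and others were added in mitochondria. By the systematic names in the RefSeq annotation, 40 of the 65 proteins belong to families shared with bacteria and 24 to families specific to mitochondria, and RSM22 had no such name. Translation in mitochondria is needed for respiration but not for growth by fermentation.

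The 65 transcripts were lowest in BY haploids and highest in hybrids. Their mean level per array was 8.35 ± 0.08 in BY haploids (SD, n = 3), 8.57 ± 0.11 in mixtures (n = 6), 8.58 ± 0.04 in BY diploids (n = 3), 8.69 ± 0.15 in RM haploids (n = 3), 8.99 ± 0.09 in RM diploids (n = 3) and 9.13 ± 0.08 in hybrids (n = 6). The segregants read 8.45 and 8.47, and the segregant hybrids 8.95 and 9.04. The mean over all 5656 genes moved much less, from 8.14 in BY haploids to 8.27 in RM diploids. RNA came from whole cultures, so more transcript per cell and a larger share of cells that express it cannot be told apart.

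Neighbours in this order overlapped at several places. The BY haploid arrays (8.26 to 8.41) lay below all BY diploid arrays (8.54 to 8.62) and below all RM haploid arrays (8.52 to 8.79). Mixtures (8.39 to 8.71) overlapped BY haploids, BY diploids and RM haploids. The 2nd RM haploid array, at 8.52, was the low one of its group, and the other RM haploid arrays were at 8.79 and 8.78. RM diploids (8.91 to 9.08), segregant hybrids and hybrids (8.997 to 9.24) overlapped with each other and lay above every array of the other groups.

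**Figure D1:**
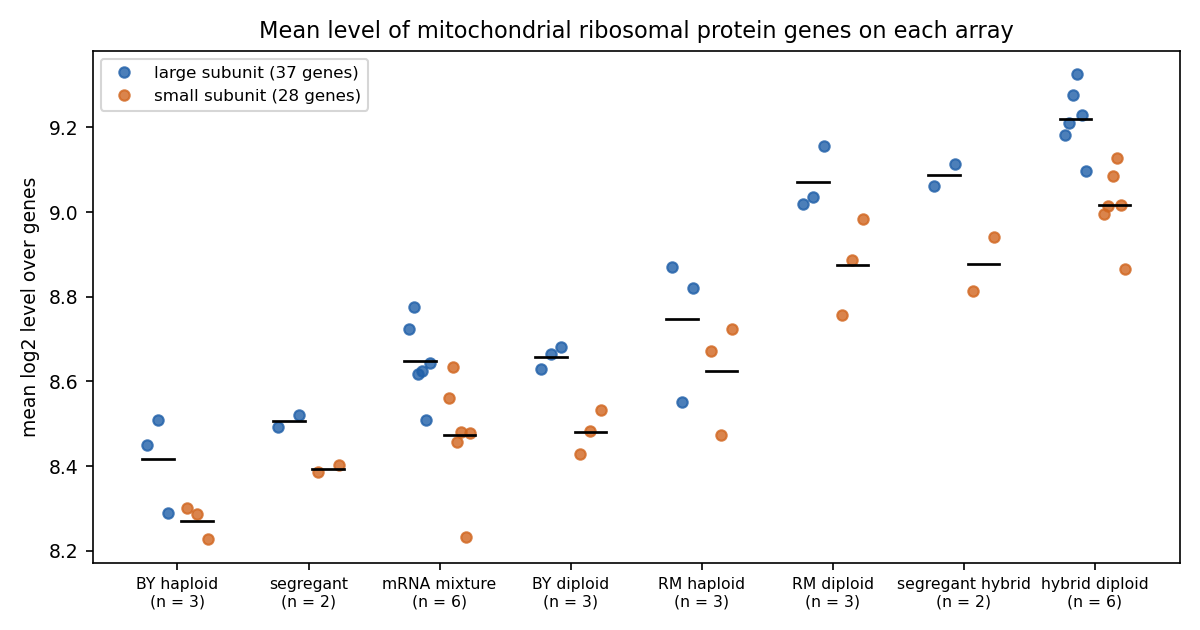
Mean log2 level over the 37 large-subunit genes and the 28 small-subunit genes on each of the 28 arrays, by group, with the group mean as a bar; the vertical axis does not start at 0. Both subunits are lowest in BY haploids, at a mean of 8.42 and 8.27, and highest in hybrids, at 9.22 and 9.02; the offset between the subunits depends on the probe sets and carries no meaning.

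Single genes were placed by their highest and lowest group. Among the 6 groups with at least 3 arrays, the hybrid mean was the highest for 50 of 65 genes, the RM diploid mean for 14 and the RM haploid mean for 1. BY haploids had the lowest mean for 57 genes, RM haploids and mixtures for 3 each and BY diploids for 2.

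Haploids of the strains were compared first. Transcripts of the mitoribosome were higher in RM haploids, by a median of 0.38 over the 65 genes, while the median over all genes was 0.07. At a threshold of 0.05 in limma's moderated test, adjusted over all 9274 probe sets, 22 of 65 were higher in RM and 0 lower. Of all genes, 12.1% were called higher and 5.23% lower. At an unadjusted p under 0.05, 37 members were higher and 0 lower. Estimates were above 0 for 62 of 65 genes, and for 34 genes every RM array lay above every BY array, which held for 22.6% of all genes. RM arrays all lay below for 0 members, against 12.4% of all genes.

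In the large subunit 11 of 37 genes rose. MRPL23, a member of the uL13 family shared with bacteria, was at 8.55, 8.85 and 8.42 in BY haploids and at 9.40, 9.12 and 9.51 in RM haploids. All RM arrays were above all BY arrays, and the difference was 0.74 ± 0.14 (SE, limma adjusted p = 0.000475), the largest of the 65. MRPL3, a mitochondria-specific protein with the fold of an RNase III, was at 8.38, 8.50 and 8.03 in BY and at 9.03, 8.83 and 8.88 in RM. Its groups did not overlap either, with a difference of 0.61 ± 0.11 (adjusted p = 0.000263). The other called genes of the subunit were MRPL35, MRPL28, MRPL39, MRPL8, MRPL4, MRPL25, MRPL10, MRPL17 and MRPL19.

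In the small subunit 11 of 28 genes rose. RSM25, a mitochondria-specific protein, was at 6.88, 7.11 and 7.06 in BY haploids and at 7.69, 7.88 and 7.35 in RM haploids, with no overlap. The difference of 0.62 ± 0.18 had an adjusted p of 0.0153 in limma. MRP10, a small protein whose cysteines are oxidised on import, was at 7.88, 8.02 and 8.05 in BY and at 8.44, 8.48 and 8.73 in RM. The groups were again apart, by 0.57 ± 0.12 (adjusted p = 0.0012). RSM28, also specific to mitochondria, differed by 0.64 ± 0.18 (adjusted p = 0.0141). The other called genes were MRPS16, RSM26, MRPS35, RSM23, MRPS18, RSM7, MRP17 and MRP1.

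A few genes stayed near 0 in haploids. RSM19 differed by -0.05 ± 0.14, MRPL15 by -0.05 ± 0.12 and MRPL27 by -0.03 ± 0.30, the 3 estimates below 0. MRPL27, a mitochondria-specific protein, was at 7.90, 8.47 and 8.21 in BY haploids and at 8.81, 6.98 and 8.69 in RM haploids. The 2nd RM array was below every BY array and the other 2 RM arrays were above them, so the mean hides a wide spread.

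The number of haploid calls moved with single arrays. It was 35 without the 5th mixture array, which is not in the comparison but adds to the shared estimate of the spread, and 15 without the 3rd BY haploid or the 1st RM haploid array. RSM25 lost its call without the 2nd RM haploid array (limma adjusted p = 0.0858), without the 1st BY haploid array (0.0724) or without the 1st RM haploid array (0.051). RSM28 lost it without the 1st RM haploid array (0.0857) or the 2nd BY haploid array (0.052). MRPL23, MRPL3 and MRP10 kept their calls whichever array was left out.

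The same question was asked of diploids, which share no array with the haploids. Here 28 of 65 genes were higher in RM and 0 lower by limma, where 9.83% of all genes were higher and 8.45% lower. The median difference was 0.40, while the median over all genes was 0.00. Without adjustment, at p under 0.05, 42 members were higher and 0 lower. Estimates were above 0 for 64 of 65 genes, and for 46 the RM arrays all lay above the BY arrays, against 25.9% of all genes. They all lay below for 0 members and for 24.9% of all genes.

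In the small subunit 11 of 28 genes rose between the diploids. The largest difference was that of MRPS9, whose bacterial relative reaches the tRNA sites of the small subunit. It was at 8.59, 8.36 and 8.48 in BY diploids and at 9.09, 9.63 and 9.62 in RM diploids. The groups were apart, by 0.97 ± 0.26 (SE, limma adjusted p = 0.00916). RSM25 was at 7.07, 7.05 and 7.21 in BY diploids and at 7.68, 8.17 and 8.11 in RM diploids, again with no overlap. It rose by 0.88 ± 0.18 (adjusted p = 0.000888). RSM26 and MRP1, a pair of small-subunit proteins related to superoxide dismutase, differed by 0.69 ± 0.15 (adjusted p = 0.00224) and 0.59 ± 0.13 (adjusted p = 0.00164).

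In the large subunit 17 of 37 genes rose. MRPL38, related to a bacterial protein at the interface of the subunits, was at 9.09, 9.15 and 9.03 in BY diploids and at 9.89, 9.80 and 10.01 in RM diploids. The groups were apart by 0.81 ± 0.17 (limma adjusted p = 0.00134). MRPL3 was at 8.71, 8.66 and 8.65 in BY and at 9.43, 9.47 and 9.50 in RM. Its groups did not overlap and differed by 0.79 ± 0.11 (adjusted p = 1.03e-05). MRP20, which stands at the exit of the tunnel, differed by 0.69 ± 0.18 (adjusted p = 0.00759) and lost the call without the 1st BY diploid array (0.0547). The other called genes were MRP49, MRPL39, MRPL24, MRPL23, MRPL17, MRPL10, MRPL51, MRPL35, MRPL19, MRPL13, MRPL1, MRPL28, MRPL22 and MRPL15.

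At the other end, MRPL49 was the 1 gene with an estimate below 0 in diploids, at -0.01 ± 0.18. It was at 8.99, 8.85 and 9.15 in BY diploids and at 9.08, 8.48 and 9.39 in RM diploids, so the groups overlapped. MRPS8 and MRPL6 differed by 0.03 ± 0.17 and 0.05 ± 0.15. The count of calls in diploids ranged from 21 without the 1st BY diploid array to 37 without the 5th mixture array.

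Haploid BY and RM differ in mating type genes as well as in strain, as shown above, and the diploids of both strains do not. On the diploid arrays the a-specific mean was 6.93 to 7.16 and the alpha-specific mean 7.36 to 7.64. The median strain difference of the 65 genes was 0.38 in haploids and 0.40 in diploids, beside 0.07 and 0.00 for all genes. Whether mating type has a part in the haploid difference was not tested.

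Both strain comparisons called 16 genes, which is 72.7% of the 22 called in haploids and 57.1% of the 28 called in diploids. They were 8 large-subunit genes (MRPL3, MRPL23, MRPL39, MRPL35, MRPL10, MRPL28, MRPL17 and MRPL19) and 8 small-subunit genes (RSM25, RSM28, RSM26, MRPS35, MRP1, RSM7, MRP10 and RSM23). Another 18 genes were called in 1 of the comparisons, which makes 34 in either, and 31 genes were called in neither. The sign was the same for 61 of 65 genes, and for 71.3% of all genes. Across the 65 genes the 2 strain differences had a Pearson correlation of 0.37, given as a description because genes share arrays and are not independent.

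**Figure D2:**
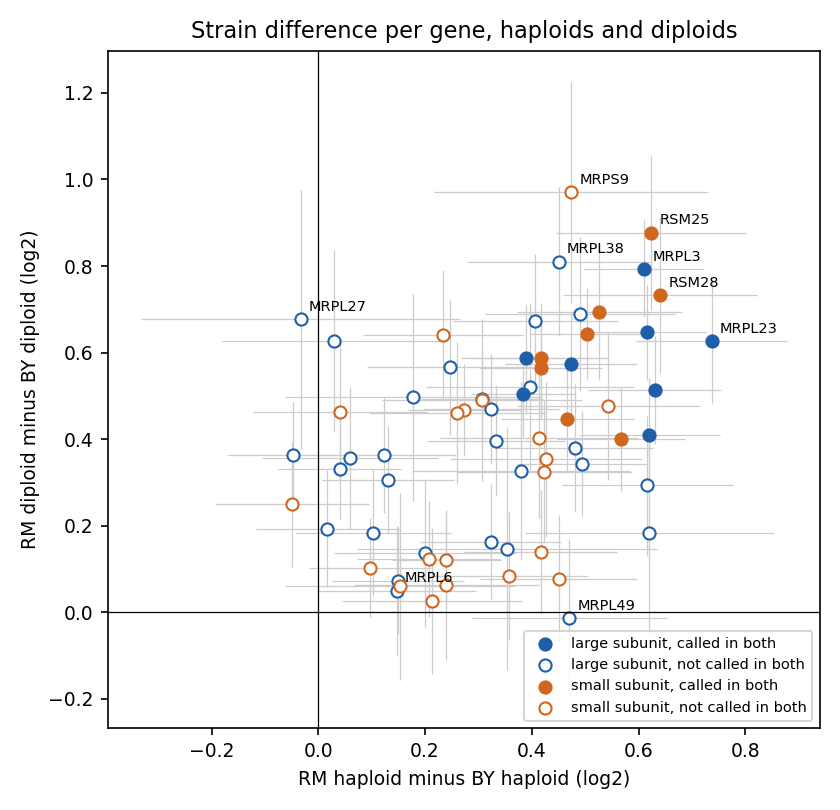
Difference between RM and BY in haploids (horizontal axis) and in diploids (vertical axis), both log2, for each of the 65 genes; grey lines are standard errors and filled points are the 16 genes called higher in both. All but 4 genes lie above 0 on both axes. MRPL27 and MRPL49 have an estimate near 0 in one comparison and a larger one in the other, but neither gene was called in either comparison.

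No gene of the mitoribosome was shown to respond to strain differently in haploids and diploids. The test of the difference itself, strain by ploidy in limma, called 0 of 65 genes in either direction. Of all genes it called 0.76% higher and 1.06% lower, and 1 member had an unadjusted p under 0.05, MRPL15, at 0.41 ± 0.17 (adjusted p = 0.356). The median over members was 0.09. In simulated data this test found 1% of changes of 0.5 and 38% of changes of 1, so differences of the size seen here were mostly not detectable.

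Ploidy was compared within each strain. In BY, transcripts were higher in diploids by a median of 0.23, but the median over all genes was also above 0, at 0.13. Limma called 2 of 65 genes higher and 0 lower, where 2.44% of all genes were higher and 1.06% lower, so this share is close to the background. Before adjustment, at p under 0.05, 16 members were higher and 0 lower. For 38 genes all diploid arrays lay above all haploid arrays, against 28.7% of all genes, and all lay below for 0 members and for 4.37% of all genes.

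The called genes were MRPL6 and MRPL3. MRPL6, whose bacterial relative lies near the site where translation factors bind, was at 8.47, 8.32 and 8.30 in BY haploids and at 8.93, 9.06 and 8.87 in BY diploids. The groups were apart by 0.59 ± 0.15 (limma adjusted p = 0.0126). Without the 2nd BY diploid array the adjusted p was 0.0783, without the 3rd BY haploid array 0.0603 and without the 2nd BY haploid array 0.0517. MRPL3 differed by 0.37 ± 0.11 with an adjusted p of 0.0496 and lost the call without any of 20 arrays, with a highest adjusted p of 0.387 without the 3rd BY haploid array. With the medians of all arrays set equal, limma called 0 members and their median difference fell to 0.13, beside 0.03 for all genes.

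In RM, 11 of 65 genes were higher in diploids and 0 lower by limma, where 4.92% of all genes were higher and 2.72% lower. The median difference was 0.29 and that of all genes 0.05. At an unadjusted p under 0.05, 34 members were higher and 0 lower, and for 31 genes the arrays did not overlap, all diploid arrays being higher, against 19.3% of all genes. All were lower for 0 members and for 10.4% of all genes. Of the called genes 10 were of the large subunit: MRPL27, MRPL24, MRPL38, MRPL15, MRPL3, MRPL51, MRPL20, MRPL6, MRPL19 and MRPL22. The small subunit had MRP51, a protein linked genetically to the translation of the COX2 and COX3 mRNAs in yeast.

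MRPL15 and MRPL3, related proteins with RNase III folds that pair on the yeast large subunit, were among them. MRPL15 was at 8.12, 7.90 and 7.99 in RM haploids and at 8.63, 8.44 and 8.71 in RM diploids, without overlap. It differed by 0.59 ± 0.12 (limma adjusted p = 0.00206). MRPL3 differed by 0.55 ± 0.11 (adjusted p = 0.00166), and both calls held whichever array was left out.

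MRPL27 had the largest estimate, 0.98 ± 0.30 (limma adjusted p = 0.0424), with its 2nd RM haploid array low as described above. Without that array its difference was 0.39 (adjusted p = 0.345). The 3 members still called without it were MRPL15, MRPL3 and MRPL19, so MRP51 was not called either. Without the 5th mixture array 23 were called. MRPL24 (adjusted p = 0.139), MRPL38 (0.2), MRPL51 (0.247), MRPL22 (0.246), MRPL6 and MRPL20 also lost their calls without the 2nd RM haploid array. MRPL22 lost its call without any of 17 arrays and MRPL27 without any of 12, so these do not rest on that array alone. The count was 6 without the 1st RM diploid array and 4 without the 3rd.

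The hybrids were then set against their parents. Compared with BY diploids, 53 of 65 genes were higher in hybrids and 0 lower by limma, where 13.8% of all genes were higher and 14.6% lower. All 65 estimates were above 0, with a median of 0.53, while the median of all genes was -0.05. Without adjustment, at p under 0.05, 60 members were higher and 0 lower. For 52 genes every hybrid array lay above every BY diploid array, against 17.6% of all genes, and below for 0 members and 21.9% of all genes. The calls covered 31 of 37 large-subunit and 22 of 28 small-subunit genes.

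MRPS9 had the largest difference here too, 1.14 ± 0.22 (SE, n = 6 and 3, limma adjusted p = 0.000639). The hybrid arrays ran from 9.35 to 9.78 with a median of 9.625, all above the BY diploids. RSM24, a mitochondria-specific protein of the small subunit, was at 7.75, 7.83 and 8.13 in BY diploids and from 8.79 to 8.87 in hybrids, with a median of 8.83. Hybrids were higher by 0.93 ± 0.13 (adjusted p = 2.02e-05). The 12 genes not called were MRP21, MRP4, MRP7, MRPL27, MRPL32, MRPL50, MRPL6, MRPL9, MRPS17, MRPS8, RSM18 and RSM27.

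Hybrids were nearer to RM diploids. Limma called 8 of 65 genes higher and 0 lower, where 5.16% of all genes were higher and 5.75% lower, and the median difference was 0.15 beside -0.05 for all genes. Before adjustment, at p under 0.05, 16 members were higher and 1 lower. For 11 genes all hybrid arrays lay above all RM diploid arrays, against 8.08% of all genes, and for 1 member, MRP21, all lay below, against 11.4%.

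The called genes included RSM10, related to the bacterial small-subunit protein S10. It was at 8.41, 8.82 and 8.73 in BY diploids, at 8.80, 9.10 and 9.12 in RM diploids and from 9.23 to 9.67 in hybrids, with a median of 9.53. Every hybrid array was above both parents, and hybrids exceeded RM diploids by 0.48 ± 0.16 (limma adjusted p = 0.0422). MRPL16, whose bacterial relative lies near the peptidyl transferase centre, was at 7.84, 8.01 and 8.03 in BY diploids, at 7.98, 7.97 and 8.15 in RM diploids and from 8.20 to 8.58 in hybrids, with a median of 8.47. Hybrids were again above both parents, by 0.41 ± 0.11 over RM diploids (adjusted p = 0.014).

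The other called genes were MRPL15 (0.36 ± 0.11), MRPL4, at the tunnel exit (0.35 ± 0.11), MRPL36 (0.33 ± 0.11), MRP2 (0.31 ± 0.09), MRPL49 (0.48 ± 0.16) and MRPS18 (0.40 ± 0.13). The arrays of MRPL49 and MRPS18 overlapped between hybrids and RM diploids. These calls rest on single arrays. Without the 2nd RM diploid array limma called 0 members, without the 1st 2, and without the 5th mixture array 13 higher and 1 lower, MRP21. Quantile normalization left 1 call.

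Estimates against RM diploids were above 0 for 50 genes and below 0 for 14. MRP21, related to the bacterial small-subunit protein S21, had the lowest. It was at 8.67, 8.84 and 8.62 in RM diploids, at 8.22, 8.23 and 8.21 in BY diploids and from 8.11 to 8.59 in hybrids, with a median of 8.355. All hybrid arrays were below all RM diploid arrays, by -0.35 ± 0.16 (limma adjusted p = 0.158). Without the 5th mixture array the adjusted p was 0.0178.

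The hybrid mean was above both parental means for 50 of 65 genes, between them for 15 and below both for 0. Of all genes, 26.6% were above both parents, 33.9% between and 39.6% below. Of the members, 63 were nearer to RM diploids than to BY diploids, as were 3433 of all 5656 genes. A mean above both parents is always nearer to the higher parent. RM diploids were the higher for 64 of 65 members, so most of the 63 follow from the counts above. The shares were alike in the subunits, with 27 of 37 large-subunit and 23 of 28 small-subunit genes above both parents.

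**Figure D3:**
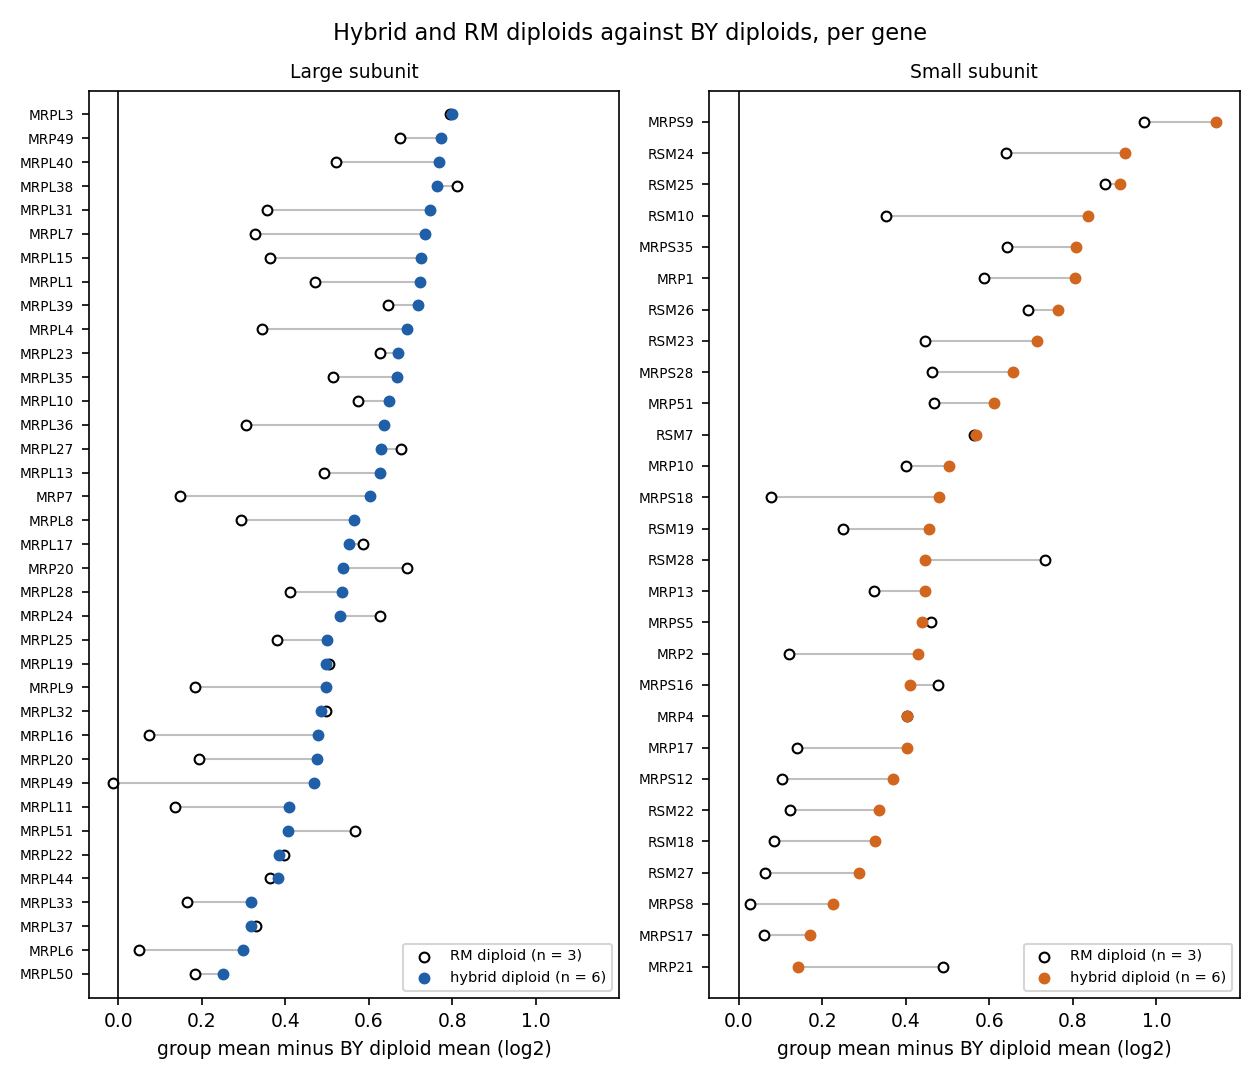
Mean of the RM diploids (open points) and of the hybrids (filled points) minus the mean of the BY diploids, log2, for the 37 large-subunit genes (left) and 28 small-subunit genes (right), sorted by the hybrid difference. All 65 hybrid points lie right of 0, and 50 of them lie to the right of the RM diploid point; the points share the BY diploid arrays.

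A hybrid that carries 1 genome of each parent would, with additive levels, lie at the mean of the parents. That mean was taken on the linear scale. Hybrids exceeded it for 38 of 65 genes and fell below it for 0 by limma's moderated variance, where 9.05% of all genes were higher and 12.8% lower. At an unadjusted p under 0.05, 49 members were higher and 0 lower. The median difference was 0.33, the median of all genes was -0.06, and 64 of 65 estimates were above 0. The calls covered 20 of 37 large-subunit and 18 of 28 small-subunit genes.

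RSM10 exceeded the parental mean by the largest amount, 0.65 ± 0.13 (limma adjusted p = 0.00178). MRPS9 exceeded it by 0.58 ± 0.19 (adjusted p = 0.0338), and lost the call when any of 7 arrays was left out (highest adjusted p 0.129, without the 1st RM diploid array). RSM24 exceeded it by 0.57 ± 0.11 (adjusted p = 0.00128), MRPL31 by 0.56 ± 0.12 (adjusted p = 0.00285) and MRPL15 by 0.53 ± 0.09 (adjusted p = 0.000324). MRPL4 and MRPL40, a pair of proteins around the tunnel exit, exceeded it by 0.51 ± 0.09 (adjusted p = 0.000475) and 0.48 ± 0.14 (adjusted p = 0.0186). MRP21 was the 1 gene below the parental mean, at -0.12 ± 0.13.

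The mixtures of parental mRNA show what equal parts give on these arrays without a hybrid cell. They lay at the linear mean of the haploid parents, with a median difference of 0.02, where the median of all genes was -0.04. Limma called 1 of 65 genes higher and 0 lower, where 1.04% of all genes were higher and 3.47% lower. Without adjustment, at p under 0.05, 3 members were higher and 1 lower. The mixture mean was between the haploid parents for 46 of 65 genes, above both for 16 and below both for 3. Of all genes, 45.7% were between, 21.9% above both and 32.4% below both.

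The called gene was MRPL38, at 0.52 ± 0.12 (limma adjusted p = 0.0131). It was at 9.08, 8.79 and 8.59 in BY haploids, at 9.54, 8.83 and 9.44 in RM haploids and from 9.42 to 10.10 in mixtures, with a median of 9.49. The 5th mixture array was the highest of its group and the 2nd RM haploid array the lowest of its own. The call was lost without that RM haploid array (0.39, adjusted p = 0.0628), and without the 5th mixture array the difference was 0.41.

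Hybrids and mixtures both hold RNA of both genomes, but the mean of the 7 genes that diploids repress was at the haploid level in mixtures and low in hybrids. Hybrids were higher for 59 of 65 genes and lower for 0 by limma, where 22% of all genes were higher and 10.7% lower. Before adjustment, at p under 0.05, 62 members were higher and 0 lower. The median was 0.57, beside 0.08 for all genes, and for 49 genes every hybrid array lay above every mixture array, against 13.2% of all genes, and below for 0 members and 4.05% of all genes. The 6 genes not called were MRP20, MRP7, MRPL24, MRPL38, MRPS16 and MRPS17. The 2 probe sets of MRPL44 gave similar estimates here but different calls. The one used read 0.26 (limma adjusted p = 0.0477) and the other 0.29 (adjusted p = 0.198). Hybrids against BY diploids gave 0.38 (adjusted p = 0.0203) and 0.33 (adjusted p = 0.251). In other comparisons the sizes differed, and neither probe set was called. RM against BY diploids gave 0.36 and 0.09, BY diploids against BY haploids 0.03 and 0.39, and mixtures against the parental mean 0.09 and 0.43.

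RSM23, the relative of the human GTP-binding protein DAP3, shows the size of this contrast. It ran from 7.51 to 8.05 in mixtures, with a median of 7.915, and from 8.59 to 8.76 in hybrids, with a median of 8.685. The groups were apart by 0.81 ± 0.09 (limma adjusted p = 1.23e-07). MRPS35 ran from 8.14 to 8.52 in mixtures and from 8.90 to 9.13 in hybrids, apart by 0.73 ± 0.07 (adjusted p = 4.45e-08). MRPL7 differed by 0.82 ± 0.14 (adjusted p = 0.000125). Hybrid state and ploidy cannot be told apart in this comparison.

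Each segregant and each segregant hybrid may have a genotype of its own, so these arrays are described singly, with no test. On each of the 2 segregant arrays 39 of 65 genes lay between the means of the haploid parents, as did 36.7% and 35.6% of all genes. Below both parents were 19 and 17 genes, and above both 7 and 9. Of all genes, 36.7% and 34.5% lay below both and 26.6% and 29.9% above both. The 1st segregant was nearer to RM haploids for 14 genes and the 2nd for 31, and for 2719 and 2079 of all 5656 genes. Single genes differed between the 2 segregants in both directions, with MRPL3 at 8.31 and 8.71 and MRPS9 at 9.06 and 8.49. Of the segregant hybrids the 1st lay between the diploid parents for 40 genes and above both for 24, and the 2nd for 29 and 35. Of all genes, 46.1% and 43.3% lay between and 25.2% and 28.1% above both. The segregant hybrids were nearer to RM diploids for 57 and 62 of the 65 genes, and for 2542 and 2109 of all 5656 genes. For members above both parents this again follows from the higher level of RM diploids.

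The large and the small subunit moved by similar amounts. The mean of the large-subunit genes minus that of the small-subunit genes was 0.15 ± 0.08 in BY haploids (SD, n = 3), 0.12 ± 0.07 in RM haploids, 0.18 ± 0.03 in BY diploids, 0.19 ± 0.06 in RM diploids, 0.20 ± 0.02 in hybrids (n = 6) and 0.18 ± 0.05 in mixtures (n = 6). Measured from BY haploids, the group means moved by -0.03 to 0.06. Over the same groups the large-subunit mean itself moved by up to 0.80 and the small-subunit mean by up to 0.75. The SD was 0.08 among BY haploid arrays and 0.02 among hybrids. Means of BY haploids, RM haploids and segregants (0.11 to 0.15) lay below those of all diploid and hybrid groups (0.18 to 0.21). Every hybrid array (0.184 to 0.230) lay above all mixture arrays but the 5th (0.140 to 0.167). These small offsets were not tested. The 5th mixture array had the highest value of all, 0.277.

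**Figure D4:**
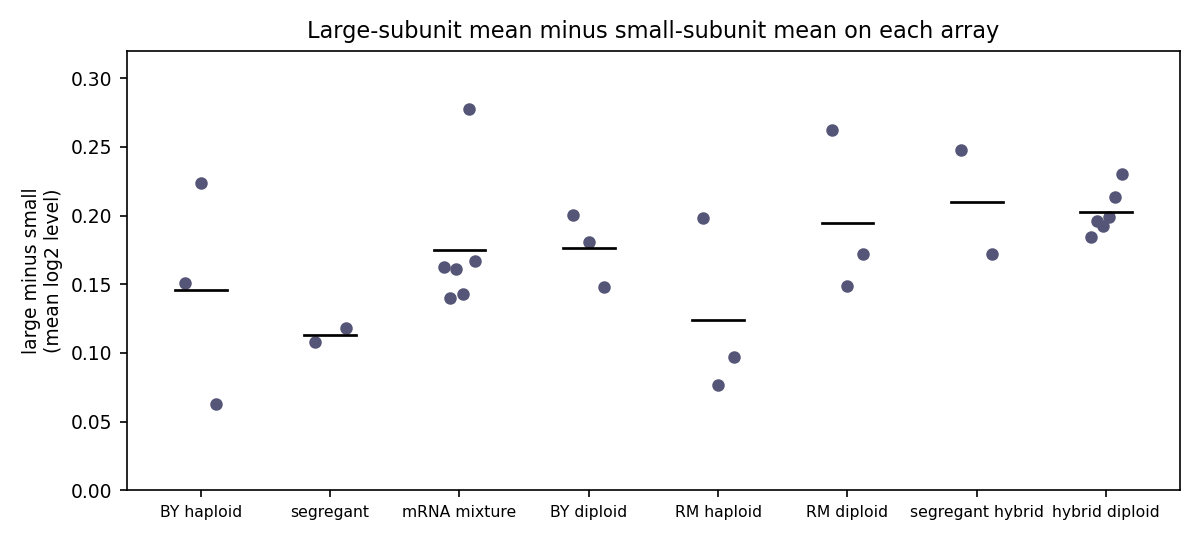
Mean log2 level of the 37 large-subunit genes minus that of the 28 small-subunit genes on each array, with group means as bars. Group means lie between 0.11 and 0.21 and the arrays of the 6 groups with 3 or more arrays overlap with each other, while both segregant arrays (0.108 and 0.118) lie below those of BY diploids, RM diploids, hybrids, mixtures and segregant hybrids; the 5th mixture array, at 0.277, is the highest point.

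The subunits had similar medians. In haploids the median strain difference was 0.35 for the large and 0.42 for the small subunit, and in diploids 0.40 and 0.42. Hybrids exceeded the parental mean by 0.34 and 0.32. In RM diploids against RM haploids 10 of 37 large-subunit genes and 1 of 28 small-subunit genes were called, but the medians were 0.33 and 0.25, and without the 2nd RM haploid array 3 calls were left in all.

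Genes for mitochondria-specific proteins and for families shared with bacteria are set side by side here. In haploids 12 of 24 and 10 of 40 were higher in RM (50% and 25%, all genes 12.1%), with medians of 0.41 and 0.36. In diploids 16 of 24 and 12 of 40 were higher in RM (66.7% and 30%, all genes 9.83%), with medians of 0.50 and 0.35. Hybrids were higher than mixtures for 24 of 24 and 34 of 40 (100% and 85%, all genes 22%), with medians of 0.61 and 0.53. Against RM diploids hybrids were higher for 1 of 24 and 7 of 40 (4.17% and 17.5%, all genes 5.16%). The 1 of 24 is close to the share of all genes. The counts also depend on precision, as the median SE of the strain differences was 0.135 and 0.154. On each array the mean of the mitochondria-specific genes minus that of the shared genes was taken. It was -0.09 ± 0.02 in BY haploids (SD, n = 3) and -0.07 ± 0.11 in RM haploids. In BY diploids it was -0.14 ± 0.03 and in RM diploids 0.02 ± 0.04. The counts and means are descriptions, and the difference between the classes was not tested.

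Other genes of mitochondrial translation were followed in lists chosen with earlier results of these data known. Of 12 mitoribosome proteins outside the name pattern, 6 were higher in RM haploids and 5 in RM diploids, with medians of 0.31 and 0.29. That is 50% and 41.7%, where 12.1% and 9.83% of all genes were higher. NAM9, related to bacterial S4, rose by 0.86 ± 0.22 in RM haploids (limma adjusted p = 0.00645) and SWS2, related to bacterial S13, by 0.54 ± 0.13. Hybrids exceeded the parental mean for 9 of these 12. Of 13 mitochondrial tRNA synthetases, which load the tRNAs used in mitochondria, 4 were higher in RM in each strain comparison. In hybrids against the parental mean 7 of the 13 were higher. These are 30.8% and 53.8%, and 9.05% of all genes exceeded the parental mean in hybrids.

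Translation factors formed a further list. Of 8, the elongation factors MEF2 and TUF1 were higher in RM haploids, and MEF2 and MEF1 in RM diploids. That is 25% of the list in each. In hybrids MEF1, MEF2 and TUF1 exceeded the parental mean. TUF1, which delivers loaded tRNAs, was at 10.47 in BY diploids, 10.78 in RM diploids and 11.37 in hybrids. Of 13 translational activators of single mitochondrial mRNAs, CBP6 was higher and PET54 lower in RM haploids, and CBP6 and PET111 were higher in RM diploids. In haploids this is 7.69% of the list in each direction, where 12.1% of all genes were higher and 5.23% lower. In diploids it is 15.4% higher, against 9.83% of all genes. Of 11 genes of mitoribosome assembly and mitochondrial RNA, MRM1 was higher in RM haploids, and MRM1, MBA1 and MTF1 in RM diploids. These are 9.09% and 27.3% of that list. In haploids neither list exceeded the share of all genes called higher.

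Cytoplasmic ribosomal proteins had medians below 0 between strains and in hybrids against the parental mean. Between ploidies they were above 0 (0.11 in BY and 0.08 in RM), near the 0.13 and 0.05 of all genes. Of 80, 0 were higher and 3 lower in RM in each strain comparison, with medians of -0.01 and -0.07. In hybrids against the parental mean 0 were higher and 4 lower, with a median of -0.15. The lower calls are 3.75% in each strain comparison, against 5.23% and 8.45% of all genes, and 5% in hybrids, against 12.8%. At an unadjusted p under 0.05, 0 of the 80 were higher in each of these 3 comparisons, and 7, 5 and 14 were lower. Respiratory chain and ATP synthase genes had larger medians. Of 38, 35 were higher and 1 lower in RM haploids, with a median of 1.25, and 33 were higher and 1 lower in RM diploids, with a median of 0.80. Hybrids exceeded the parental mean for 36 of 38, with a median of 0.56. Of 30 genes of protein import, 4 were higher and 3 lower in RM haploids, and 3 and 2 in RM diploids, with medians of 0.09 and 0.18. These counts are 13.3% and 10% higher, close to the 12.1% and 9.83% of all genes. Hybrids exceeded the parental mean for 7 of the 30, where 9.05% of all genes did, with a median of 0.12.

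Among 8 regulators, PUF3, which encodes an RNA-binding protein known to bind mRNAs of mitoribosome proteins, was higher in RM haploids by 1.58 ± 0.13 and in RM diploids by 1.44 ± 0.13 (limma adjusted p = 7.69e-10 and 5.73e-09). HAP4, the activating subunit of the Hap complex, was higher by 1.14 ± 0.17 and 1.16 ± 0.17. HAP2 and HAP5, which bind DNA in that complex, were called in diploids and not in haploids (limma adjusted p = 0.0551 and 0.0584), and MKT1 differed by -0.41 ± 0.14 in diploids. Limma called 0 of the 8 in hybrids against the parental mean (2 higher and 1 lower at an unadjusted p under 0.05), and PUF3 read -0.23 ± 0.09 there. Whether any of these levels has a part in those of the mitoribosome genes was not tested.

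**Figure D5:**
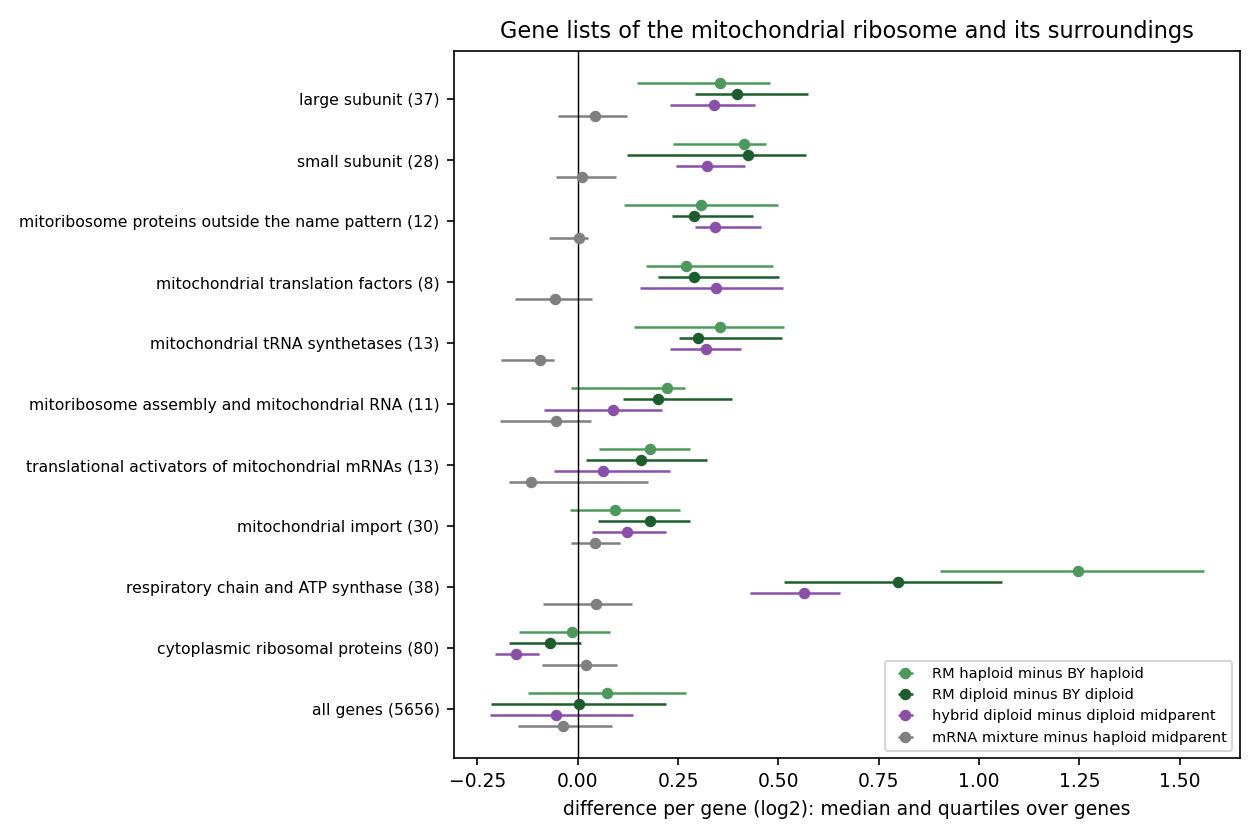
Median (point) and quartiles (line) of the difference per gene, log2, for the subunits and for lists of related genes, with the number of genes in brackets, in 4 comparisons. Both subunits have medians of 0.32 to 0.42 between strains and in hybrids against the parental mean, cytoplasmic ribosomal proteins have medians below 0 in these comparisons, and respiratory genes reach 1.25; comparisons with BY diploids and RM diploids share arrays.

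The 65 genes varied alike across arrays. The correlation of a gene with the mean of the other members over the 28 arrays had a median of 0.87 and ran from 0.60 to 0.98, while over the other 5591 genes the median was 0.16. Arrays share strain, ploidy and scaling, and when each group's mean was subtracted first, the medians were 0.58 for members and 0.27 for other genes. High correlation was not particular to the members. With the members' mean, respiratory chain and ATP synthase genes had a median of 0.82, import genes 0.68 and cytoplasmic ribosomal proteins -0.05. After the subtraction these medians were 0.23, 0.32 and 0.07. Among the members, MRP51 (0.98), MRPS35 and MRPL3 (both 0.96) followed the mean most closely. MRP7, related to bacterial L27, followed it least, at 0.60, with MRP20 at 0.63 and MRPL24 at 0.67. After subtraction of the group means the order was another. Then the range was -0.23 to 0.84, MRP7 was at 0.72, and RSM24 (-0.23), MRPL24, MRPL44, MRPL51, MRP20, MRP49 and MRPL31 were below 0.

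The arrays on which these genes scattered differed. MRP7 was at 7.56, 8.51 and 8.60 in BY diploids and at 8.11, 8.12 and 8.88 in RM diploids, and it ran from 8.41 to 9.36 in hybrids, so it varied within several groups. MRP20 was at 8.16 on the 5th mixture array and from 7.21 to 7.62 on the other mixtures. MRPL24 was at 9.15 on the 6th hybrid array and from 8.15 to 8.32 on the other hybrids.

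The 10 genes outside the members with the highest correlation with the members' mean over 28 arrays were MZM1, MAM33, COX23, MSD1, MSF1, MSC6, SWS2, MNP1, RTC6 and PPA2, at 0.93 to 0.96. SWS2, MNP1 and RTC6 are mitoribosome proteins with other names, and MSD1 and MSF1 are mitochondrial tRNA synthetases. MZM1 acts in the assembly of respiratory complex III and PPA2 is the pyrophosphatase of mitochondria. The members lie on 14 chromosomes, with at most 12 on one, and only MRPS12 and RSM19 are direct neighbours.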

How the data were processed

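The authors deposited levels per probe set for 28 arrays. By their range the deposited values are log2 levels, and software and scaling are not given in the sources used here. No further scaling was applied. From the 9335 probe sets, 60 controls and 1 that read 0 throughout were removed, and 9274 were tested. GEO's platform annotation gave 6504 of them 1 gene, 328 several and 2442 none. A gene was named by its probe set with the highest mean. Columns of values without a sample numbered 0.

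Groups came from the labels. R 4.3.3 and limma 3.58.1 (lmFit, then eBayes without trend) gave two-sided tests, with Benjamini-Hochberg adjustment over all 9274 and a threshold of 0.05. The fit used the 6 groups with 3 or more arrays (24 arrays). The parental mean for hybrids and mixtures was linear, taken to log2 with a delta-method standard error. The members, lists and tests were chosen with earlier results of these data known. Values per array were given, by rule, for called members with the largest differences and no overlap between groups, for members against the main direction and for those with the smallest strain difference. Some others (MRP7, MRP20, MRP21, MRPL49 and the genes of single lists) were named after their values were seen.

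In simulated data with 9274 probe sets and 100 changed per size, a change of 1 and of 0.5 was recovered in 72% and 21% of cases in the haploid strain comparison, 38% and 1% for strain by ploidy, and 93% and 55% for hybrid against the parental mean. False calls made up 2.11%, 7.14% and 3.90% of calls. The changed probe sets were drawn from all 9274, with independent normal noise. In the data limma called 1669 probe sets in the haploid strain comparison, more than were changed in the simulation. These rates are therefore not those of the members. Sequence features of the genes were not analysed here. The fits were repeated with each array left out, with median centring or quantile normalization, on all 28 arrays or the compared groups only, with a replicate block, with a variance trend, without the dimmest 25%, with a gene's probe sets averaged or reduced to 1 before adjustment, and with a parental mean of log2 values. matplotlib 3.10.9 in Python 3.11.15 drew the figures.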

Additional observations from a re-analysis of the deposited data

Results flagged for a closer look

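In groups of 6 arrays, 76 sets of values were tested for a single array far from the others, and 17 had one, where chance gives about 1 in 20. Of these, 12 were on the 5th mixture array. It was low for MRPS16 (8.81), RSM26 (8.36), MRPL20 (8.17), MRPL22 (7.88), MRPL40 (6.88) and MRPL49 (8.47). It was high for MRPL38 (10.1), MRP49 (9.52), MRPL24 (8.42), RSM24 (8.73) and MRPL31 (9.4), and for the large minus the small subunit (0.277). The 6th hybrid array was low for MRPL27 (8.74), MRPL22 (8.63) and MRPL40 (8.13) and high for MRPL24 (9.15), and the 1st hybrid array was low for MRP2 (10.05).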

How the results depend on the processing

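No direction of a member, median or subunit difference that was called turned under the alternatives. With the 5th mixture array left out, the counts of members called higher were 35 in RM against BY haploids, 4 and 23 for ploidy in BY and RM, and 13 (with 1 lower) in hybrids against RM diploids. Leaving out each array in turn, the counts higher ranged over 15 to 35 for strain in haploids, 21 to 37 in diploids, 0 to 4 for ploidy in BY, 3 to 23 in RM, 37 to 57 for hybrids against BY diploids, 0 to 13 (lower 0 to 1) against RM diploids, 28 to 46 against the parental mean, 0 to 1 for mixtures and 55 to 61 for hybrids against mixtures. Quantile normalization gave 34 for strain in haploids, 1 for ploidy in BY and 1 for hybrids against RM diploids. Median centring gave 0 for ploidy in BY (median 0.13), 17 in RM, and a median of 0.19 for strain by ploidy. Without the dimmest 25% of probe sets, which removed no member, ploidy in RM gave 17. The compared groups alone, with fewer arrays for the spread, gave 13 for strain in haploids, 1 and 2 for ploidy in BY and RM, 5 for hybrids against RM diploids and 0 for mixtures. All 28 arrays and 1 probe set per gene each gave 1 for ploidy in BY. Same-numbered arrays of different groups did not deviate together throughout (24 correlations from -0.29 to 0.46, with 11 over 0.1), so their numbers were not taken to pair them. Hybrid and mixture arrays 1 to 4 correlated at 0.21 to 0.46, and arrays 5 and 6 at -0.24 and -0.11. Shared handling of same-numbered arrays was not tested. The replicate block gave 1 for ploidy in BY, 5 for hybrids against RM diploids and 0 for mixtures, and moved no other count by over 1.5 times. Chosen after seeing the data, leaving out the 1st and 6th hybrid arrays gave 1 for ploidy in BY, and leaving out these and the 5th mixture array gave 37 for strain in haploids, 5 and 25 for ploidy in BY and RM, and 16 for hybrids against RM diploids. The cause of these shifts was not tested. With 3 arrays per parent, changes of 0.5 were often missed in the simulated data, and with no detection calls the lower limit of the signal is unknown.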
